A study of Mus musculus with 12 samples.

Results

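Gene expression in the hippocampus of adult mice exposed to ethanol before birth was compared with that of unexposed control mice, as 3 ethanol libraries against 3 control libraries. Deposited transcript values were summed per gene, and the 14455 genes with a mean level of 1 or more over all 12 libraries of the series were kept, out of 35580 genes with a matched transcript. Of these, 13872 are protein-coding and 566 are annotated pseudogenes. All mice were male C57BL/6 (C57BL/6J in the methods), with no transgene or deletion, and tissue was taken on postnatal day 70. Dams of the ethanol group had free choice between water and 10% ethanol in water during pregnancy and, by the methods, kept that choice until postnatal day 10, so that pups could also meet ethanol through milk. Their pups stayed with the dam. Dams of the control group drank water, and blood alcohol was not measured. Pups of the stress group were isolated for 3 h daily on postnatal days 2 to 14, and the ethanol + stress group had both exposures. These 2 groups, also of 3 mice each, enter here through the shared estimate of the spread and as a second measure of the ethanol effect, in other mice. By the methods, stressed and unstressed pups came from the same litters, so these mice can be littermates of the control and ethanol mice. Intake was voluntary, and which mice shared a litter is not given, so that the p values measure the spread between these mice, which may include litter.

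Ethanol reaches the fetal brain freely, and exposure before birth is known to affect neuron survival, synapse formation and the later function of the hippocampus, a region needed for spatial and episodic memory. The adult hippocampus holds the pyramidal cells of the CA fields, the granule cells of the dentate gyrus, interneurons, glia and a dense bed of capillaries. RNA from whole tissue mixes all of these, together with any blood left in the vessels, and in such samples fewer cells of a type and less RNA per cell cannot be told apart.

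Levels are TPM (transcript abundance as a share of the library), a measure corrected for transcript length, which the authors also scaled between libraries. They summed to 942219.5 to 986540.7 per control library, to 1005251.3 in ethanol 1, 1173649.8 in ethanol 2 and 889222.3 in ethanol 3. About 12060000 to 14920000 read pairs stood behind each of these 6 libraries, estimated from the step size of low values. Ethanol 2 and ethanol 3 stood apart from the controls in opposite directions. The median gene with transcripts under 1000 bases differed from its control mean by 0.39 on the log2 scale in ethanol 2, by 0.11 in ethanol 1 and by -0.15 in ethanol 3. For the 2896 genes of 4000 bases or more these medians were -0.18, -0.05 and 0.07. The hippocampal markers were present in every library. Prox1, a transcription factor of dentate granule cells, had levels of 13.7, 14.4 and 14.7 in controls and 13.0, 12.7 and 14.4 in ethanol mice, and Mpped1, a marker of CA1 pyramidal cells, had 130, 121 and 115 against 126, 114 and 141.

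**Figure D1:**
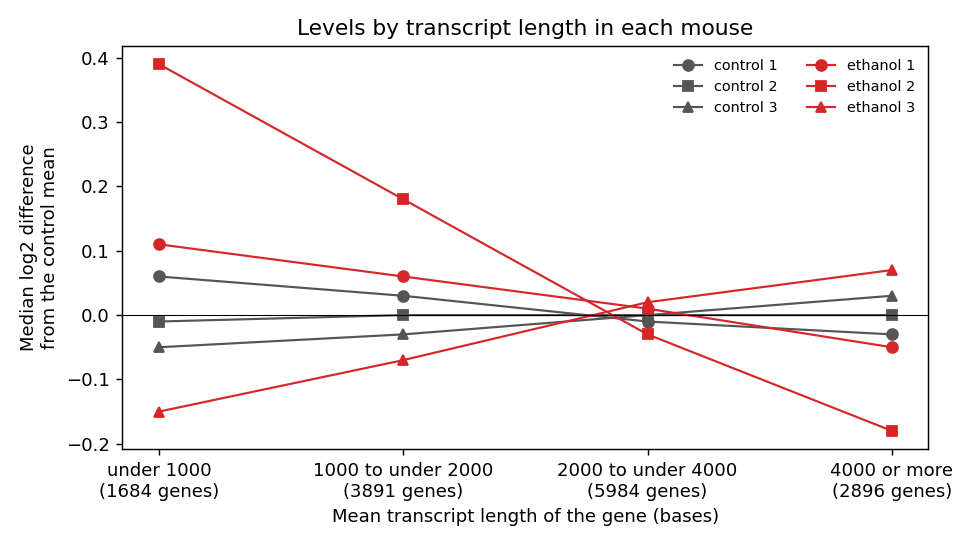
Median log2 difference from the control mean (vertical axis) over genes in 4 classes of mean transcript length (horizontal axis, in bases), with one line per control and ethanol mouse. Ethanol 2 runs from 0.39 for the shortest genes to -0.18 for the longest and ethanol 3 runs the other way, from -0.15 to 0.07.

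The effect of prenatal ethanol on single genes was small. The median size of the difference was 0.1 on the log2 scale over all tested genes, and the median signed difference was 0.01. Differences were tested on log2(level + 0.5) with limma in one model of the 4 groups, and genes with an unadjusted two-sided p under 0.01, the threshold used in the study, were called. At this threshold 70 genes were called, 0.484% of those tested, where 1% of the tested genes would be 145. Of them 51 rose (0.353%) and 19 fell (0.131%), a split that was 32 to 23 after rescaling each library to the same total and 43 to 5 with sums weighted by transcript length. At p under 0.05 there were 403 genes (2.79%). After Benjamini-Hochberg adjustment over all tested genes, 1 gene had an adjusted p under 0.05 in limma (0.00692%). Among the genes named below as called, only Gm49070, Tmem253 and Prr14 had an adjusted p below 1.0. The calls below are therefore a ranking of these 6 mice, and a call does not by itself separate a gene from the background. In data simulated for this design, the fit called 56% of 100 genes with a true log2 change of 0.5 and 91% of 100 genes with one of 1. It called 1% of the 14255 genes given no change there, and 0.484% of the tested genes in the mice. Whether the shares of 56% and 91% hold for the mice was not tested.

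All 3 ethanol values lay outside the range of the 3 control values for 1074 genes (7.43%), of which 627 were higher (4.34%) and 447 lower (3.09%). This balance turned under other choices, with 315 higher and 547 lower after rescaling, 436 and 526 with the 20 highest transcripts removed and 470 and 507 with protein-coding transcripts only. Of the 70 called genes, 66 had groups that did not overlap. For a single gene, an exact permutation test of 3 mice against 3 cannot give a two-sided p below 0.1. Among the called genes, 15 rose by 1 or more and 5 fell by 1 or more on the log2 scale, and the median size of a called difference was 0.58. The 70 genes were expressed at a median level of 9.98, against 17.7 for all tested genes.

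**Figure D2:**
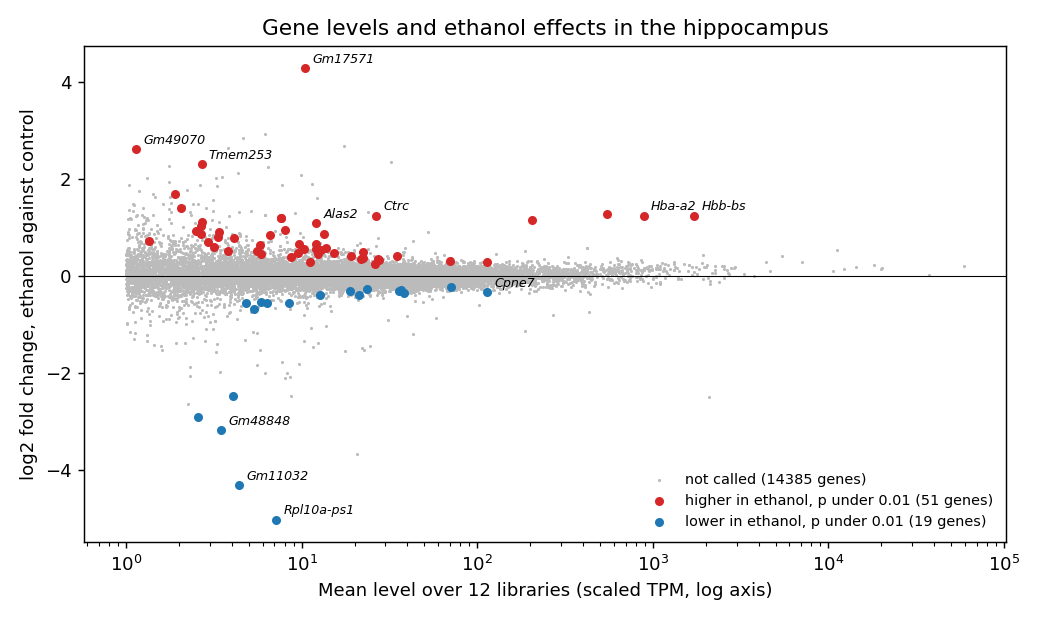
Mean level over the 12 libraries (horizontal log axis, scaled TPM) and log2 fold change of ethanol against control (vertical axis) for each tested gene, with the 51 genes called higher in red and the 19 called lower in blue. Most called genes lie below a level of 100, and the globin genes Hba-a2 and Hbb-bs stand out among the abundant genes. Genes with a 0 in one group, such as Gm49070 and Gm11032, have a position that depends on the value of 0.5 added before taking logs.

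Among the 49 gene lists used here, the blood markers had the most called members. These lists were chosen with earlier results of these data known, so this rank is a description. Haemoglobin is built from alpha chains, encoded in the adult mouse by Hba-a1 and Hba-a2, and beta chains, encoded by Hbb-bs and Hbb-bt, each holding a heme group. Alas2 encodes the erythroid form of the first enzyme of heme synthesis. All 5 of these genes were called higher in ethanol mice, and none of them overlapped between the groups. They are transcribed together in maturing red cells, and their upstream sequences are shown here because they carry the letters by which erythroid promoters are usually described. The 250 bases before the annotated start are given from RefSeq (GRCm38.p6), 5′ to 3′ in the direction of transcription, with capitals for the core of the GATA motif (GATAA), the CACCC box, the CCAAT box and the core of the TATA box (TATAA) on either strand.
Hba-a2 (chr11:32296242-32296491, + strand): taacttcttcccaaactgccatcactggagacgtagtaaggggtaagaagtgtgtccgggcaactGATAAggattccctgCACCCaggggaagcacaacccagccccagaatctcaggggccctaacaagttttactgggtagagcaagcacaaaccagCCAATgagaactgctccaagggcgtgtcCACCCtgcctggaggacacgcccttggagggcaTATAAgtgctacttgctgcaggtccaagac
Hbb-bs (chr7:103827929-103828178, - strand): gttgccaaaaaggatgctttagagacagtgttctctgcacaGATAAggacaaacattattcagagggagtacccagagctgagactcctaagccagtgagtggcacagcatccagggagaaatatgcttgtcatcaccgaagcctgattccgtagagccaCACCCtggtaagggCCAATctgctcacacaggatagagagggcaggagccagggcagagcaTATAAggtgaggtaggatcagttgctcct
Hbb-bt (chr7:103813924-103814173, - strand): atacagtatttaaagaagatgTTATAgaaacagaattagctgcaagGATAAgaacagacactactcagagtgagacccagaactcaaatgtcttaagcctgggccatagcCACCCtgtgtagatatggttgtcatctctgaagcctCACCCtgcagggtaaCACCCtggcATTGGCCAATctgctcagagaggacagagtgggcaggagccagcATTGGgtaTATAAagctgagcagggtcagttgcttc
Alas2 (chrX:150547167-150547416, + strand): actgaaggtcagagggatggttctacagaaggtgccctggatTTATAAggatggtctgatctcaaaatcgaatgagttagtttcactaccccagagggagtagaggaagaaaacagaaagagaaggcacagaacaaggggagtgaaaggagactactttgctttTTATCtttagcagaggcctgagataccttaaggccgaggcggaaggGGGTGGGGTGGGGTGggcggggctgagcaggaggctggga
The window of Hba-a1 (chr11:32283422-32283671, + strand) shares an unbroken run of 247 bases with that of Hba-a2. GATAA was found in all 5 windows and in 22.6% of 32851 promoter windows of the same length. CACCC was found in all 5 and in 52% of promoters, CCAAT in 4 of the 5 and in 33.8%, and TATAA in all 5 and in 22.8%. All 4 motifs together were present in the 4 globin windows and in 318 promoters (0.968%). Motifs overlapped only in Alas2, where TATAA was read on both strands from neighbouring bases. These matches describe letters, and no binding was measured.

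Hba-a2 had levels of 528, 442 and 483 in the control mice and of 948, 1750 and 897 in the ethanol mice. Its mean was 484 ± 43.3 (SD, n = 3) in controls and 1200 ± 479 (SD, n = 3) with ethanol, a log2 fold change of 1.24 ± 0.30 (SE). Ethanol 2 was by far the highest of the 6, and the other 2 ethanol mice were close to each other and above every control. Hba-a1 showed the same order, with 355, 252 and 274 in controls and 590, 1080 and 553 in ethanol mice (log2 fold change 1.28 ± 0.30 SE). The longest transcripts of Hba-a2 and Hba-a1 share 91% of their 31-base words, so the division of reads between them is an estimate.

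Hbb-bs, the most abundant called gene, had 1010, 804 and 863 in controls and 1710, 3560 and 1500 in ethanol mice (log2 fold change 1.24 ± 0.37 SE). Hbb-bt had 122, 99.1 and 111 against 209, 398 and 180 (log2 fold change 1.15 ± 0.33 SE). In both beta genes ethanol 2 again stood well above the rest and the groups did not overlap. The longest Hbb-bt transcript shares 59.4% of its 31-base words with that of Hbb-bs, so the division of reads between these genes is also an estimate. Alas2 had 7.16, 5.9 and 8.15 in controls and 12.5, 21.4 and 13.9 in ethanol mice (log2 fold change 1.09 ± 0.22 SE). It lies on chromosome X and is expressed far below the globins here, and it ranked the 3 ethanol mice with ethanol 2 highest as they did.

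The 4 globin genes added up to 1600 to 2010 in the control mice and to 3460, 6790 and 3130 in ethanol 1, 2 and 3. The ratio of alpha to beta levels varied little, from 0.768 to 0.78 in controls and from 0.716 to 0.862 in ethanol mice. Relative to the control mean, Hbb-bs reached 3.99 in ethanol 2 but 1.92 and 1.68 in ethanol 1 and 3. Without ethanol 2, Hba-a2 kept a log2 fold change of 0.93 and Alas2 of 0.86, both still called in limma, whereas Hbb-bs, at 0.85, was no longer called. Leaving out any 1 control mouse also ended the call of Hbb-bs, with 4, 3 and 3 of the 5 genes called without control 1, 2 and 3. When transcripts were weighted by length before summing, Hba-a2, Hba-a1 and Alas2 stayed called, and Hbb-bs (1.33) and Hbb-bt (1.24) did not.

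The globin levels were not particular to the ethanol mice. The stress mice had summed globin levels of 3380, 2580 and 2800 and the ethanol + stress mice of 2440, 6460 and 3960. For each of the 5 genes, all 9 libraries of the exposed groups lay above all 3 control libraries. Between ethanol + stress and stress mice, which share no animal with the comparison described here, the log2 differences were 0.32 for Hba-a1, 0.40 for Hba-a2, 0.50 for Hbb-bs, 0.61 for Hbb-bt and 0.17 for Alas2, none of them called.

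Of the 8 blood genes listed, 6 passed the level filter and 5 of these rose. Slc4a1, which encodes the anion exchanger of the red cell membrane, was below the filter. The protocol as given does not mention perfusion, so blood left in the vessels and RNA of hippocampal cells cannot be told apart. Of the 13 tested genes of heme synthesis and breakdown, Alas2 was the only one called, and the list's median was 0.00. Alas1, the housekeeping form of the same enzyme, had 105, 108 and 99.4 in controls and 113, 97.4 and 100 in ethanol mice.

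**Figure D3:**
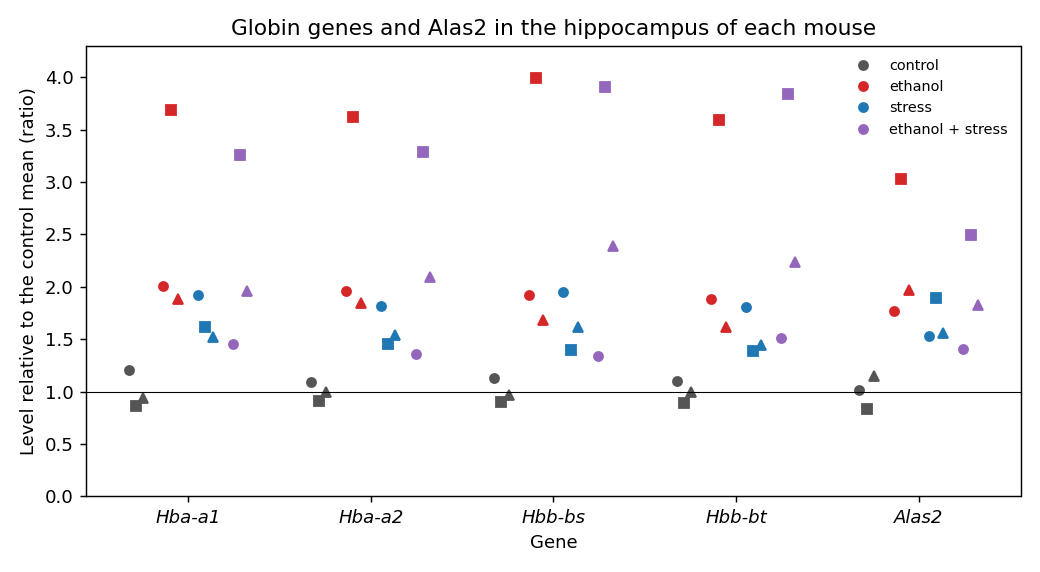
Level of 5 red cell genes in each of the 12 mice, divided by the mean of the 3 control mice (vertical axis, ratio), with circles, squares and triangles for replicates 1, 2 and 3 of each group. Ethanol 2 reaches 3.03 to 3.99 for the 5 red cell genes, ethanol 1 and 3 lie between 1.62 and 2.01, and the stress and ethanol + stress mice also lie above the controls.

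Of the other genes that rose, the one with the smallest p was Gm49070, a processed pseudogene on the opposite strand within Fgf14 (chromosome 14, 124398691 to 124398972, GRCm38). It was listed at 0 in all 3 control mice and at 2.18, 3.73 and 2.03 in the ethanol mice (limma adjusted p = 0.0326). It was also listed at 0 in all 3 stress mice and at 1.09, 2.16 and 2.43 in the ethanol + stress mice, which gave the smallest p of that comparison too (limma adjusted p = 0.175). The gene passed the level filter only through the ethanol groups, so its p and its pattern are a description of a gene kept for being high there. Its only transcript has 282 bases, and its levels were worth an estimated 1.46, 2.3 and 1.53 read pairs in ethanol 1, 2 and 3, which is close to the limit of what these libraries can show. Fgf14 itself had 22.3, 23.4 and 23.1 in controls and 21.9, 18.1 and 23 in ethanol mice.

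Tmem253, which encodes a predicted membrane protein (chromosome 14, 52015658 to 52019794), was next. Its levels were 0.233, 0.419 and 0.741 in controls and 4.29, 3.48 and 4.78 in ethanol mice, a ratio of means of 9.01 (log2 fold change 2.30 ± 0.31 SE, limma adjusted p = 0.0617). The groups were far apart, at levels low enough that each transcript rested on few reads. The control mean of 0.464 was below the level filter, so Tmem253 was kept only through the exposed groups. Its p and its pattern are therefore a description of a gene kept for being high there. Of the difference, 77.8% came from transcripts under 700 bases. The main transcript of 1234 bases had 0.233, 0.419 and 0.7 in controls and 0.9, 0.952 and 0.783 in ethanol mice, and a transcript of 347 bases was listed at 0 in all controls and at 2.15, 1.65 and 2.39 in ethanol mice. With sums weighted by transcript length, the log2 fold change of the gene was 0.97 and still called. Stress mice had 4.43, 1.63 and 1.79 and ethanol + stress mice 3.97, 3.12 and 3.46, so that all exposed mice were above the controls.

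Cth, the enzyme that releases cysteine from cystathionine, had 4.7, 4.86 and 3.68 in controls and 7.56, 6.95 and 6.86 in ethanol mice (log2 fold change 0.64 ± 0.15 SE). Its difference was nearly as large between ethanol + stress and stress mice, at 0.56, where it was called as well. The call for ethanol alone was lost with length-weighted sums (0.59) and with protein-coding transcripts only (0.44). Entpd1, an enzyme that breaks down extracellular ATP, had 8.9, 7.26 and 10.5 against 13.4, 14.3 and 14.9 (log2 fold change 0.66). Its full-length transcript of 4221 bases did not follow the gene sum, with 4.4, 5.48 and 4.71 in controls and 4.43, 4.7 and 5.16 in ethanol mice. When transcripts were weighted by length and each gene rescaled by size factors, the Entpd1 difference was -0.03. All stress (11.1 to 14.0) and ethanol + stress mice (11.3 to 14.2) were above the controls as well. Slc2a9, a urate transporter, had 2.51, 2.7 and 1.66 against 5.09, 4.21 and 3.69 (log2 fold change 0.80 ± 0.25 SE). Its difference was 0.46 with length-weighted sums and no longer called, and the call was also lost with protein-coding transcripts only (0.73), with length-weighted sums per gene length (0.40), with no filter and without control 1, control 3, ethanol 1, ethanol 2 or stress 2.

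Prr14, a protein that ties heterochromatin to the nuclear lamina, had 8.86, 8.17 and 8.09 in controls and 12.8, 13.0 and 11.9 in ethanol mice (log2 fold change 0.56, limma adjusted p = 0.873). Leng8 had 14.1, 11.4 and 12.7 against 17.3, 18.0 and 17.9 (log2 fold change 0.47), a call lost after rescaling (0.39) and with length-weighted sums (0.45). The main Prr14 transcript of 2402 bases overlapped between the groups, with 5.3, 2.62 and 3.26 in controls and 3.48, 5.02 and 4.83 in ethanol mice. The gene was not called from protein-coding transcripts only (0.37) or with length-weighted sums. In both gene sums the ethanol mice lay close together and above every control, whereas ethanol + stress mice differed from stress mice by 0.14 and -0.05. Gm21860 and Gm21748 are predicted genes of the Y chromosome whose 309-base transcripts are identical, so they carry a single measurement, 5.19, 3.68 and 3.43 in controls and 9.47, 8.79 and 11.8 in ethanol mice. Stress mice, at 6.22 to 12.9, and ethanol + stress mice, at 6.56 to 8.5, were above the controls too.

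Ctrc encodes chymotrypsin C, a digestive protease of the pancreas. It had 12.6, 14.5 and 10.9 in controls and 22.9, 49.4 and 24.5 in ethanol mice (log2 fold change 1.24 ± 0.28 SE). Ethanol 2 was the highest, as for the globins. Stress mice, at 20.6, 29.3 and 32.8, and ethanol + stress mice, at 25.6, 37.4 and 38.3, were also above every control. All of this signal was in a 310-base transcript without a coding sequence. As annotated, Ctrc overlaps Casp9 on the opposite strand and Cela2a on the same strand. Whether this transcript lies in either overlap was not examined. Whether the values were made with regard to strand is not given in the sources used here. Casp9 had 8.13, 8.61 and 10.2 in controls and 8.46, 7.93 and 7.49 in ethanol mice. No coding transcript of Ctrc contributed to these values.

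**Figure D4:**
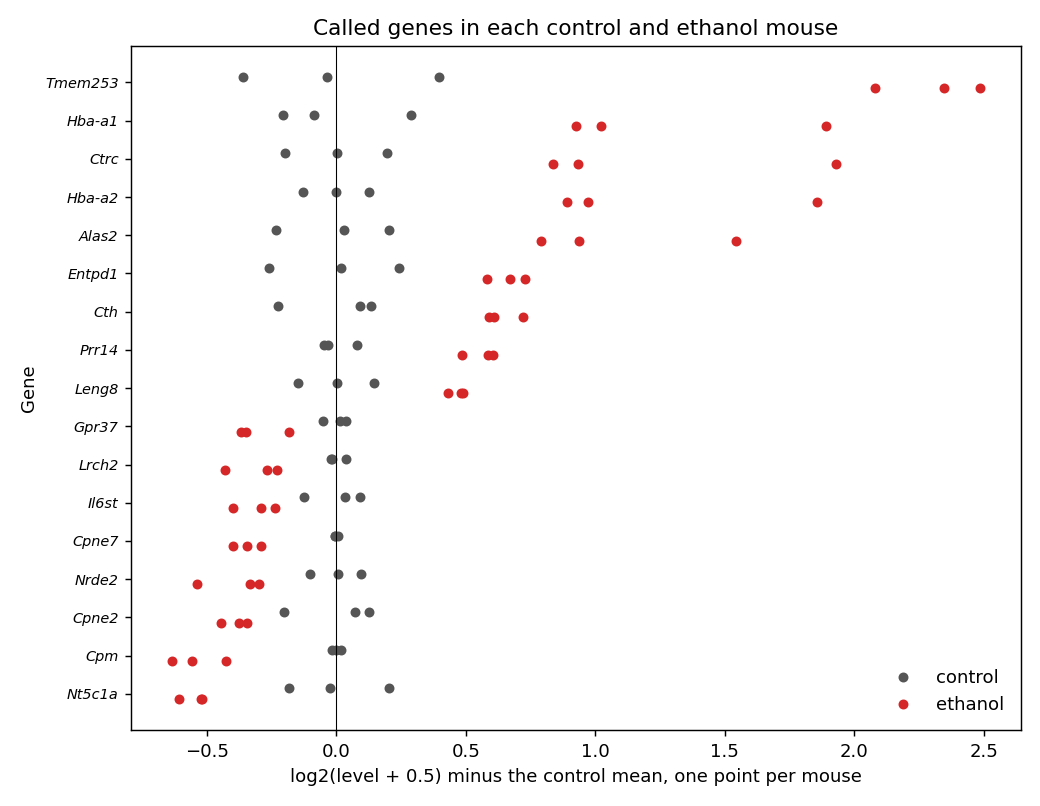
Called genes without overlap between the groups (vertical axis), with log2(level + 0.5) of each of the 3 control (grey) and 3 ethanol (red) mice minus the control mean on the horizontal axis. The ethanol points of Hba-a1, Ctrc, Hba-a2 and Alas2 spread widely because ethanol 2 is high, whereas those of Prr14, Leng8 and Cpne7 lie close together.

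Of the genes that fell, the one with the most extreme fitted difference was Rpl10a-ps1 (-5.03), a processed pseudogene of the ribosomal protein gene Rpl10a, with 17.7, 10.7 and 30.2 in controls and 0.0, 0.00166 and 0.211 in ethanol mice. It had 14.1, 9.44 and 0.0028 in stress mice and 0.00245, 3.42 and 1.63e-07 in ethanol + stress mice, so 1 mouse without ethanol was also near 0 and 1 with ethanol was not. It shares 70% of its 31-base words with Rpl10a, which had 388, 352 and 302 in controls and 412, 581 and 312 in ethanol mice, and how reads were divided between them was not tested. Tma7-ps and Gm48848 were listed at 0 in ethanol 1 and 2 but not in ethanol 3, which had 2.55 and 7.94. Gm48848 was also at 0 in all stress and ethanol + stress mice. Of the 70 called genes, 8 had a 0 in a control or ethanol library, against 1.58% of all tested genes. Among them Gm17571 and Gm11032, named after their values were seen, had fitted differences of 4.28 and -4.32 on the log2 scale that rest on such zeros. Gm17571 was listed at 0.0, 0.0 and 11.9 in controls and at 29.3, 49.4 and 14.7 in ethanol mice, and Gm11032 at 15.4, 4.86 and 11.2 in controls and at 0 in all ethanol mice. The only transcripts of Tma7-ps, Gm48848, Gm11032 and Gm17571 have 195, 111, 102 and 90 bases, shorter than the mean fragment of 200 to 208 bases estimated for these libraries, so that the reads behind these levels could not be estimated.

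Cpne7 was the most abundant gene that fell, and its control values were close together. It encodes a copine, one of a family of proteins that bind membranes in response to calcium, and is enriched in pyramidal cells of the CA2 and CA3 fields (chromosome 8, 123117374 to 123135182). Its levels were 134, 133 and 133 in controls and 105, 101 and 109 in ethanol mice, a mean of 133 ± 0.59 (SD, n = 3) against 105 ± 4.26 (SD, n = 3) and a log2 fold change of -0.34 ± 0.08 (SE). The main transcript of 2398 bases carried it, with 123, 120 and 120 against 94.1, 89.5 and 98.2. The stress mice, at 113, 119 and 111, and the ethanol + stress mice, at 114, 100 and 99.5, were also below the controls. The call held without any 1 of the 6 mice and was lost after rescaling each library to the same total (-0.42) and with length-weighted sums (-0.24). Cpne7 lies within the long readthrough gene Gm20388 on the same strand.

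Cpne7 was the only member called among the 10 markers of CA2 and CA3 pyramidal cells. Pcp4, which encodes a calmodulin-binding peptide and is strongest in CA2, had 336, 302 and 318 in controls and 388, 398 and 364 in ethanol mice, higher in all 3 but not called. Chgb had 326, 366 and 362 against 294, 188 and 434, and Cpne4 had 73.5, 81.5 and 78.8 against 70.3, 64.5 and 80.3. The list's median was -0.11, and 3 of its 10 genes were above 0. A second copine, Cpne2, fell with 20.6, 26.0 and 25.0 in controls and 18.6, 17.3 and 18.2 in ethanol mice (log2 fold change -0.39). Its call was lost with length-weighted sums (-0.29), with only the groups compared and without control 2, control 3 or ethanol 2.

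Cyfip1, a subunit of the WAVE complex that drives actin branching and a partner of the fragile X protein, had 81.6, 77.1 and 75.1 in controls and 68.1, 65.5 and 65.0 in ethanol mice (log2 fold change -0.23 ± 0.07 SE). The groups did not overlap, but the call was lost when any 1 of these 6 mice was left out, and the difference shrank to -0.05 with length-weighted sums and to -0.15 with protein-coding transcripts only. Il6st, the signalling subunit shared by receptors of the interleukin 6 family, had 35.3, 39.4 and 41.0 against 32.6, 29.1 and 31.4 (log2 fold change -0.31), and 67.8% of its difference lay in transcripts under 700 bases. Its difference was -0.03 with length-weighted sums, and leaving out any of 4 of the 6 mice ended the call. Nt5c1a, a cytosolic nucleotidase that makes adenosine from AMP, had 9.82, 11.6 and 8.76 against 6.83, 6.81 and 6.39 (log2 fold change -0.55), a call lost with length-weighted sums (-0.45) and without control 2 or ethanol 3. Entpd1 and Nt5c1a act on adenine nucleotides outside and inside the cell.

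Gpr37, a receptor abundant in oligodendrocytes, had 38.0, 39.7 and 40.4 in controls and 34.6, 30.8 and 30.4 in ethanol mice (log2 fold change -0.30). It was also lower in ethanol + stress than in stress mice, by 0.20 on the log2 scale (not called). Babam2, a subunit of the BRISC deubiquitinase, had 42.5, 39.7 and 44.0 against 34.5, 31.2 and 32.7 (log2 fold change -0.36). Its main transcript of 1888 bases overlapped between the groups, with 23.8, 27.9 and 27.7 in controls and 27.5, 25.6 and 23.1 in ethanol mice, and the gene's difference shrank to -0.08 in the alternative that moved it most. Lrch2, Nrde2 (a nuclear RNA processing factor) and Cpm (carboxypeptidase M, a membrane-bound peptidase) fell with log2 fold changes of -0.31, -0.39 and -0.54. Each of these calls was lost with length-weighted sums and with protein-coding transcripts only, and those of Nrde2 and Cpm also after rescaling. Their smallest differences over the alternatives were -0.1, -0.22 and -0.36. For Cpm, the controls at 6.5, 6.43 and 6.59 were nearly identical and the ethanol mice had 4.26, 4.01 and 4.71. Leaving out 1 mouse ended the call for 5 of the 6 possible mice in Gpr37, Babam2, Lrch2 and Cpm and for 4 of 6 in Nrde2.

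Of the genes that the study discusses for ethanol, Blvrb (biliverdin reductase B), Eif4g1 (a scaffold of translation initiation) and Myo6 (a motor that moves towards the minus end of actin) were not called as gene sums, while Slc2a9 was, with the losses given above. Eif4g1 had 95.8, 91.6 and 102 in controls and 86.9, 67.4 and 114 in ethanol mice, so that ethanol 2 and ethanol 3 lay on opposite sides of the controls. Blvrb had 13.9, 15.3 and 12.1 against 15.1, 20.5 and 12.2, and Myo6 had 65.9, 72.6 and 70.6 against 72.2, 73.8 and 58.1, with overlapping groups in both. The study's own calls were on single transcripts, in genes with altered promoter methylation. It reported Slc2a9 and Blvrb as higher and Eif4g1 and Myo6 as lower after ethanol. Single transcripts were not tested here, and they can differ from the sum, so the gene sums are another measure than that of the study. A 782-base transcript of Blvrb had 0.147, 0.0 and 0.0 in controls and 2.23, 4.83 and 5.64 in ethanol mice, while its 1028-base transcript had means of 12.8 and 11.5 with overlapping groups.

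Much of what was called higher lay in short transcripts. Of 39 genes called higher with several transcripts, 26 had over 50% of their difference in transcripts under 700 bases, a limit chosen after the data were seen. Of 13 such genes called lower, 3 did. How many of all tested genes with several transcripts would do so was not counted. For the 39 genes called higher the median share of the level held by these transcripts was 24.1%. Over all tested genes it was 2.62%, a set that was not limited to genes with several transcripts. Of 28 named called genes, 19 lost their call when transcripts were weighted by length and 14 when 1 of these 6 mice was left out. With transcripts under 500 bases left out, 35 genes were called higher and 16 lower. Globin transcripts are also short, 554 bases for Hba-a2, and Alas2 at 2037 bases and Cpne7 at 2398 bases are not.

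The 49 lists of pathway genes and cell type markers held 685 tested genes, of which 6 were called (0.876%, against 0.484% of all tested genes), the 5 red cell genes and Cpne7. As the lists were chosen with earlier results of these data known, the difference between these shares is a description. In the 32 functional lists 1 of 532 genes was called, Alas2, and 46 of the 49 lists had no called member. Medians were positive in 17 lists and negative in 30.

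Glutamate receptors carry fast excitation in the hippocampus. No member of the NMDA list was called, with a median of -0.11 over 6 tested subunits. Grin1, the obligatory subunit, had 106, 98.5 and 94.6 in controls and 97.8, 72.5 and 115 in ethanol mice, and Grin2b had 75.4, 85.0 and 82.0 against 64.0, 52.4 and 95.0. In each, ethanol 2 was the lowest and ethanol 3 the highest of the 6 mice. AMPA and kainate subunits had a median of -0.08 over 9 genes, with Gria1 at 285, 308 and 303 against 257, 231 and 295 and Gria2 at 348, 397 and 397 against 315, 279 and 417. GABA-A subunits, which carry inhibition, had a median of 0.01 over 12 genes. None of these genes was called. Synaptic vesicle release proteins and voltage-gated calcium channel subunits, with 18 genes each, had medians of -0.04 and -0.01 and no call. Among neurotrophins and their receptors, Bdnf had 22.2, 23.0 and 20.6 in controls and 15.9, 14.2 and 20.4 in ethanol mice. Bdnf was lower in all 3 ethanol mice, the third by a narrow margin, and did not reach the call threshold (log2 fold change -0.38).

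Immediate early genes, which are switched on within minutes of neuronal firing, had a log2 difference above 0 in 1 of 17 tested genes, with a median of -0.12, and none was called. The mice did not agree on this list. Its median relative to controls was -0.46 in ethanol 1, -0.09 in ethanol 2 and 0.25 in ethanol 3. Arc had 83.8, 91.1 and 134 in controls and 70.3, 109 and 119 in ethanol mice, and Junb had 58.9, 56.7 and 69.2 against 38.0, 64.7 and 73.3.

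The corticosteroid receptors and the CRH system, which set the hormonal response to stress, had a median of -0.10 over 10 genes with no call. Nr3c2, the mineralocorticoid receptor, had 88.0, 107 and 89.0 in controls and 83.7, 79.4 and 101 in ethanol mice. Glucocorticoid-induced genes had a median of -0.08 over 16 genes and no call. Heat shock proteins and chaperones were above 0 in 2 of 17 genes, with a median of -0.10. The abundant chaperone Hspa8 had 2220, 2080 and 2190 in controls and 2080, 1890 and 2070 in ethanol mice, and Hsp90ab1 had 1210, 1140 and 1150 against 1090, 1010 and 1120, both lower in all 3 ethanol mice and not called.

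Alcohol and aldehyde metabolism included 13 tested genes with a median of -0.02, while Adh1, Adh4, Adh7 and Cyp2e1 were below the level filter. Aldh2, the mitochondrial enzyme that clears acetaldehyde, had 109, 106 and 106 in controls and 107, 114 and 94.9 in ethanol mice. The enzymes and readers of DNA methylation had a median of 0.10 over 15 genes and no call. Antioxidant enzymes (median 0.09 over 22 genes), circadian clock genes (0.10 over 19) and interferon response genes (-0.06 over 18) held no call either.

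Ribosomal protein genes had log2 differences of 0 or slightly above in all 58 tested genes (median 0.17), and the 13 respiratory genes of the mitochondrial genome were all above 0 (median 0.15). Nuclear respiratory genes were above 0 in 45 of 47 (median 0.10). None of these 118 genes was called, and ethanol 2 carried most of the shared direction. The median of the ribosomal protein genes relative to controls was 0.08 in ethanol 1, 0.63 in ethanol 2 and -0.23 in ethanol 3. Rps21 had 1630, 1620 and 1600 in controls and 1780, 2970 and 1370 in ethanol mice. The median transcript lengths of these lists were 683, 784 and 744 bases, and the order of the 3 ethanol mice was that of short genes in general.

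**Figure D5:**
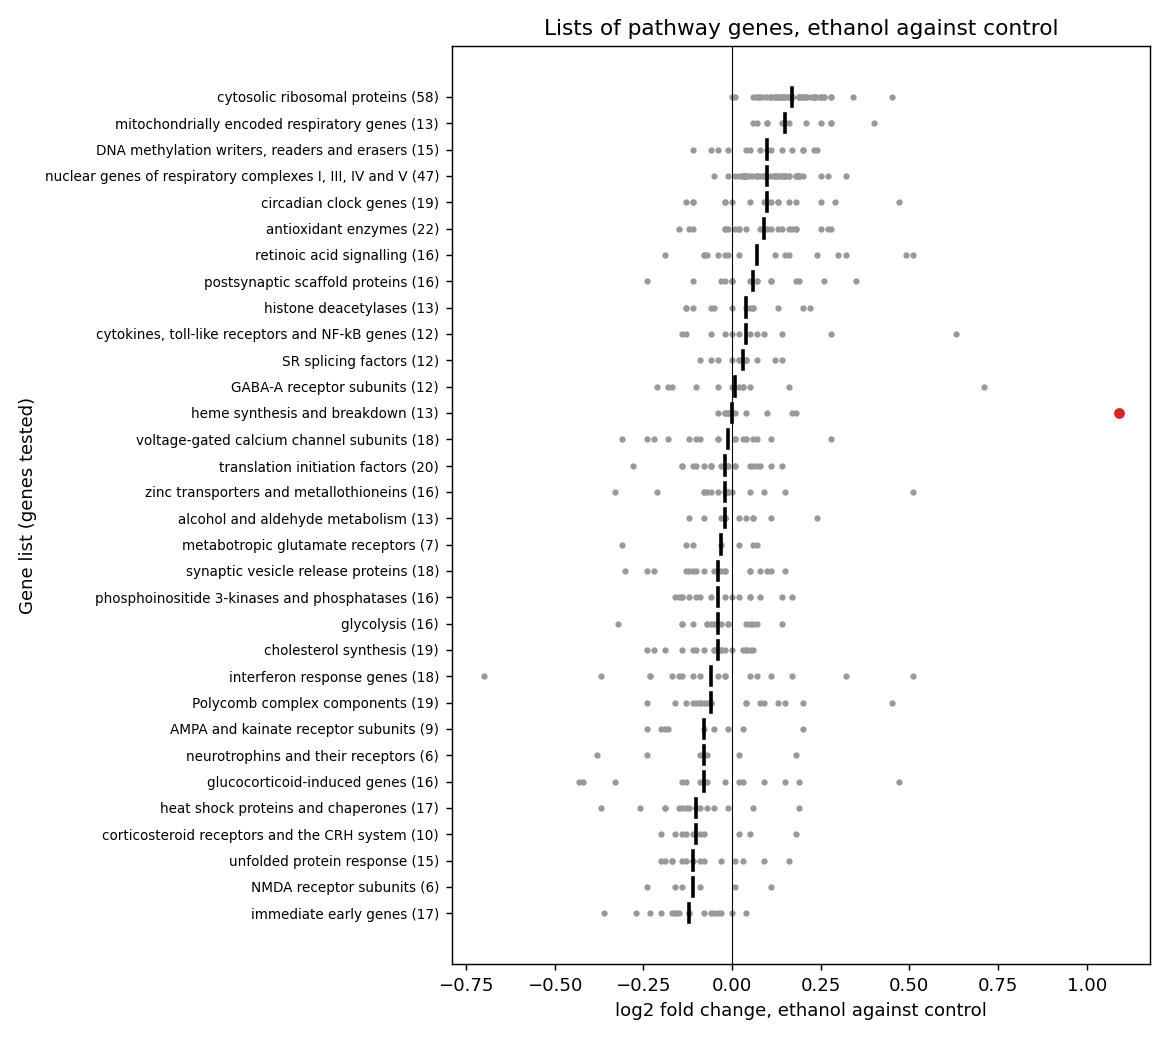
Log2 fold change of ethanol against control (horizontal axis) for each tested gene of 32 functional lists (rows, with the number of genes tested), with grey points for genes not called, a red point for the called gene and a black bar for the list's median. Ribosomal protein genes sit at the top with a median of 0.17, immediate early genes at the bottom with -0.12, and Alas2 at 1.09 is the single called gene in these lists.

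Markers of neighbouring tissue and of glia varied between the ethanol mice. Choroid plexus markers, which come from the secretory epithelium next to the hippocampus, were below 0 in all 12 tested genes (median -0.77), none called. Their sum was 1670, 869 and 2370 in controls and 4200, 215 and 158 in ethanol mice. Ttr, the leading gene of that tissue, had 1250, 591 and 1780 against 3420, 70.7 and 30.0, so ethanol 1 was above and the other 2 ethanol mice below every control. Myelin and oligodendrocyte markers were below 0 in all 12 genes (median -0.25), again with no call and mainly through ethanol 3, whose median was -0.67 against -0.02 in ethanol 1 and -0.07 in ethanol 2. Gpr37, described above, ran in the same order in the 3 ethanol mice, and the part of this variation in its fall was not tested. Microglia (median 0.01), astrocyte (0.01) and endothelial markers (0.00) had medians at or near 0, and no member of these lists was called. For microglia and astrocytes these medians average opposite shifts, 0.32 and 0.23 in ethanol 2 and -0.22 and -0.29 in ethanol 3, where all 12 genes of each list were below the control mean. Among dentate granule cell markers, 3 of 10 genes were above 0 (median -0.09, range -0.43 to 0.22), with no call.

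The ethanol effect was also measured in mice that had been separated, as ethanol + stress against stress, where 91 genes were called (0.63%). Of the 70 genes called for ethanol alone, 48 had the same sign there (68.6%), against 65.7% of all tested genes. The median log2 difference of the 51 genes called higher was 0.66 for ethanol alone and 0.15 in separated mice, and for the 19 genes called lower it was -0.54 and -0.05. These genes were picked for their difference with ethanol alone, so smaller medians in separated mice do not by themselves show a weaker effect there. Called in both were 4 genes. Mbtps2, a protease that activates sterol-regulated transcription factors, had opposite directions (log2 differences 0.29 and -0.41). Gm49070 had the same direction, which its passage through the level filter had fixed. Cth and Dhx35 also had the same direction. Dhx35 encodes an RNA helicase and, like Mbtps2, was named after its values were seen, with 10.3, 8.86 and 9.62 in controls and 13.7, 16.8 and 12.7 in ethanol mice (log2 differences 0.55 and 0.59). Of the Dhx35 difference, 99.7% lay in transcripts under 700 bases. The difference between these ethanol effects was called for 45 genes (0.311%) and had no adjusted p under 0.05 in limma, with 274 genes at an unadjusted p under 0.05.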

How the data were processed

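RNA-Seq values of hippocampus from 12 mice were analysed. Per the labels and methods, the authors made stranded libraries of total RNA after rRNA removal and processed the reads with CASAVA, kallisto and sleuth, naming the build mm10. Versions are not given in the sources used here. The deposited signal is TPM per transcript, scaled between libraries by the authors, for 115270 transcripts. Of these, 113580 matched GENCODE vM21 by identifier and were summed per gene, and unmatched ones held 0.518% to 0.58% of a library. Each value is tied to its mouse by its label.

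Genes with a mean of 1 or more over 12 libraries were tested with limma 3.58.1 (lmFit, eBayes with trend) in R 4.3.3 on log2(level + 0.5), with the 4 groups in one model, two-sided, and called at an unadjusted p under 0.01. Adjustment was by Benjamini-Hochberg over the 14455 tested genes. Fold changes on this scale understate those of low genes. Read pairs were estimated from the steps of low values, of which 77.0% to 79.6% per library came out whole within 0.1, too few for a test of counts. Summed values change when reads move between transcripts of unequal length, and an exact 0 can be a failed estimate.

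The model was tested on simulated data. Same-numbered control and ethanol mice did not deviate together (correlations 0.019, -0.029 and 0.043). They come from different dams, and the deviations are from means of 3 mice, so these values cannot exclude a shared batch. Same-numbered mice of the other groups were not compared, and the main model assumed no pairing. Members, gene lists and tests were chosen with earlier results of these data known. Named genes are, per direction, the 12 called genes without overlap that have the smallest p (pseudogenes and Gm or Rik genes only among the first 5), called list members, up to 4 abundant members of a described list, the 3 most abundant called genes, and 4 genes from the study. Alternatives were 2 pseudocounts, 4 filters, 3 scalings, length-weighted and protein-coding sums, no trend, only the groups compared, a replicate block and each mouse left out. Length-weighted sums per gene length with size factors and sums over transcripts of 500 bases or longer were added after seeing the data. Tables were joined with Python 3.11.15 and pandas 2.3.3. DNA methylation was not analysed here. Values of some single list members are not reported here.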

Additional observations from a re-analysis of the deposited data

Results flagged for a closer look

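Of the 70 genes called for ethanol alone, 22 did not have the same sign in separated mice. For 2 of them, named after their values were seen, the groups did not overlap in either comparison and the directions were opposite. Mbtps2, which was called in both comparisons, had 9.19, 9.48 and 9.95 in control and 11.2, 12.3 and 11.7 in ethanol mice, but 13.4, 12.9 and 14.2 in stress and 10.2, 10.0 and 9.79 in ethanol + stress mice. Every ethanol mouse was above every control and every ethanol + stress mouse was below every stress mouse. Of the difference for ethanol alone, 89.4% lay in transcripts under 700 bases, and the main transcript of 4797 bases had 8.61, 8.22 and 9.29 in control and 8.59, 7.23 and 8.15 in ethanol mice. The difference between the 2 effects was -0.7 ± 0.13 (SE) on the log2 scale (limma adjusted p = 1.0).

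Primpol, a primase-polymerase that restarts stalled replication, had 2.8, 2.56 and 2.03 in control and 4.81, 4.28 and 3.02 in ethanol mice, and 3.56, 3.28 and 3.94 in stress and 2.4, 2.81 and 2.63 in ethanol + stress mice. Its difference was -1.0 ± 0.26 (SE) on the log2 scale (limma adjusted p = 1.0). Its transcripts under 700 bases differed by more than the gene sum (131% of it), so that longer ones together differed the other way. Neither gene passed the adjustment over all tested genes, and both were looked for among genes called for ethanol alone.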

How the results depend on the processing

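The 70 genes called (51 higher, 19 lower) became 145 (109 higher, 36 lower) with a mean of 0.1 or more, and 198 (144 higher, 54 lower) with no filter, where more genes are tested. Called higher became 32 after rescaling to a common total and called lower 5 with length-weighted sums, and higher calls then made up less of the total in the first case (32 against 23 lower) and more in the second (43 against 5). Leaving out 1 mouse gave 48 to 109 calls, 36 to 76 higher and 12 to 33 lower, the lowest without control 3 and the highest without ethanol 3. Called lower was also 31 without ethanol 1. Genes with an adjusted p under 0.05 numbered 0 with either other pseudocount, a mean of 5 or more, length-weighted sums, protein-coding transcripts, transcripts of 500 bases or longer or the replicate block, 2 with a mean of 0.1 or more, 4 with no filter, and 0 to 3 with 1 mouse left out. Genes without overlap numbered 967 higher with a mean of 0.1 or more, 1052 with no filter and 315 after rescaling, and 258 lower with length-weighted sums, with 600, 652 and 547 lower and 779 higher beside them. With 1 mouse left out they numbered 627 to 2479 higher and 447 to 2137 lower, highest without ethanol 3, and leaving out any other control or ethanol mouse gave 1048 to 1332 higher.

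The share of called genes with the same sign in separated mice was 55.9% with a mean of 0.1 or more, 54% with no filter, 83.3% with length-weighted sums and 53.8% (without ethanol 2) to 78.9% (without ethanol 3) with 1 mouse left out, and 56.2% without control 3. Calls in separated mice, 91, became 151, 189, 58 (rescaled) and 56 (length-weighted), and 61 to 518, highest without ethanol + stress 1. Calls of the difference between ethanol effects, 45, became 90, 26 (mean of 5 or more), 131, 15 (length-weighted), 21 (length-weighted per gene length) and 26 (500 bases or longer), and 35 to 89, with 76 without ethanol 2 and 89 without ethanol + stress 1. The replicate block left 69 calls (54 higher, 15 lower) and ended that of 6 of 28 named called genes (Slc2a9, Lrch2, Cpm, Gpr37, Cyfip1 and Babam2). Entpd1 reversed to -0.03 under length-weighted sums per gene length with size factors. Of 28 named called genes, 9 stayed called in every alternative that gave them a value, Gm49070, Tmem253, Gm21860, Gm21748, Alas2, Ctrc, Hba-a1, Hba-a2 and Rpl10a-ps1. Of these, Gm49070, Tmem253, Gm21860, Gm21748 and Ctrc have no value from transcripts of 500 bases or longer, nor Gm49070, Ctrc and Rpl10a-ps1 from protein-coding ones. Gm49070 and Tmem253 passed the main level filter only through exposed groups. The 3 scalings gave medians over all genes of -0.064, -0.032 and 0.005 in place of 0.014, and length-weighted sums gave 0.087. Where a value changed, the cause was not tested unless stated. With 3 mice per group and few read pairs behind a low gene, differences of 0.5 or less on the log2 scale may often have been missed. How often this happened in these mice was not tested.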
